A study of Mus musculus with 9 samples.

Results

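Mouse adult fibroblasts (MAFs in the labels) that had been treated with DPI for 72 hours were compared with the same kind of cells treated for 24 hours. The comparison used 6 of the 9 libraries of a bulk RNA-seq series, 3 per treatment time, and the other 3 are labelled as control. DPI is taken here to be diphenyleneiodonium, a compound known to inhibit enzymes that carry a flavin, and the series is titled for respiratory complex I assembly and its FMN cofactor. The 24 h group (DPI, 24 hours), the 72 h group (DPI, 72 hours) and the control group carry no genotype, strain, sex or age in the labels. No dose is given, nor is the time at which control cells were collected, so exposure to DPI and time in culture cannot be told apart between 24 h and 72 h. Nothing in the labels ties replicate libraries to separate cultures or animals, so the p-values below reflect variation among these libraries only, and that variation may be technical. All genes that passed a filter on low counts were members of the comparison, 13614 in number, and the control libraries served only as a reference level.

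DPI-sensitive flavoenzymes include complex I of the respiratory chain, which takes electrons from NADH through an FMN, and the NADPH oxidases. Fibroblasts answer mitochondrial and nutrient stress through several transcription programs. The integrated stress response acts through the transcription factor ATF4 on amino acid supply, hypoxia-inducible factor (HIF) acts on glycolysis, SREBP-2 acts on sterol synthesis, and interferon signalling sets the level of interferon-stimulated genes.

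Depth was similar across the 6 libraries, from 15612580 to 17833199 counts, and the groups separated on the first principal component, which held 46.4% of the variance. On the second (17.1%), 72 h replicate 1 lay at -34.6, and the other 72 h libraries lay at 18.7 and 16.6. Of 9 fibroblast markers, 6 reached 1 CPM (read counts scaled to the depth of the library): Col1a1, Col1a2, Vim and S100a4 were abundant, Pdgfra and Dcn were low, and Thy1, Lum and Fap were at or near 0. Group means at 24 h and 72 h were 15.8 and 8.05 CPM for Pdgfra and 3.52 and 1.12 CPM for Dcn. They were 1939 and 2434 CPM for Vim and 733 and 727 CPM for S100a4. For Col1a1 they were 4169 and 3500 CPM, and for Col1a2 3263 and 3020 CPM. The lymphocyte markers were at or near 0, and the macrophage markers summed to 8.12 to 10.3 CPM at 24 h and 6.67 to 7.83 CPM at 72 h, with Adgre1 at 0. Cytosolic ribosomal protein genes took 3.46% to 3.56% of counts at 24 h and 3.88% to 4.09% at 72 h.

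Of the 13614 genes, 4660 (34.2%) differed between 72 h and 24 h at an adjusted p under 0.05 (edgeR's quasi-likelihood test, Benjamini-Hochberg adjustment). At 72 h, 2251 genes (16.5%) were higher and 2409 (17.7%) were lower, and the median log2 difference over all genes was 0.00. These shares are the base rates for the counts of gene lists below. A difference of at least 2-fold was found for 277 higher genes (2.03%) and 315 lower genes (2.31%). The 24 h and 72 h libraries did not overlap in level for 6440 genes (47.3%), the base rate for the statements on overlap below. In bulk libraries, a change in the share of cells that express a gene and a change in RNA per cell cannot be told apart. Levels below are CPM after TMM scaling, listed for replicates 1, 2 and 3 in order, and differences are log2 values of 72 h minus 24 h with their standard errors.

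**Figure D1:**
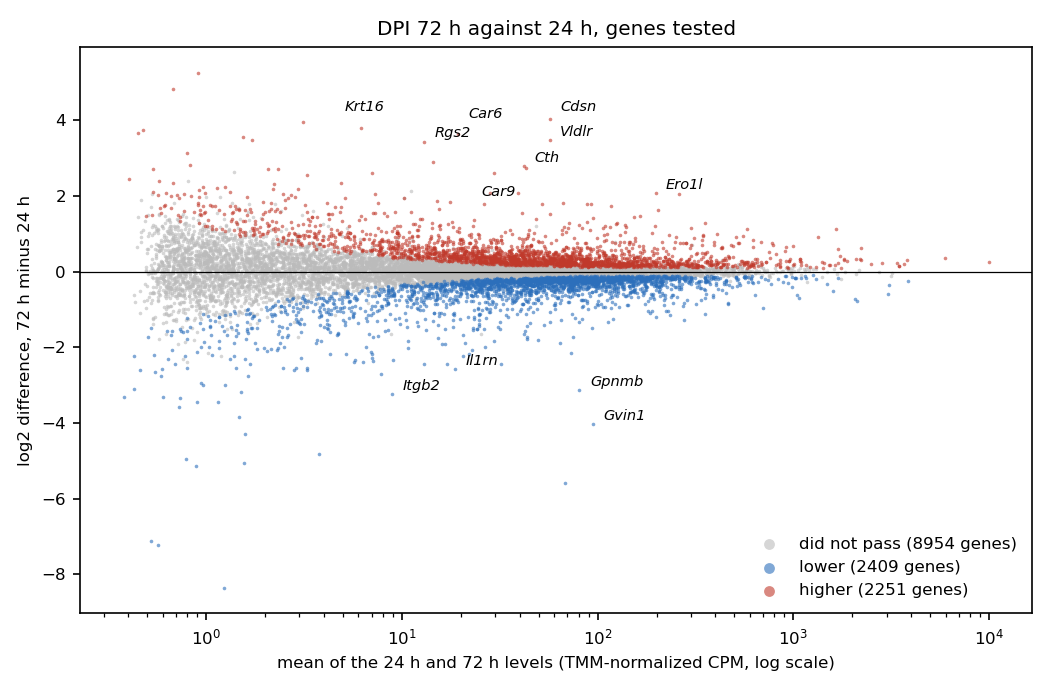
Log2 difference between 72 h and 24 h (vertical axis) against the mean level in CPM on a log scale (horizontal axis), 1 point per gene tested. Red points are the 2251 genes higher at 72 h, blue points the 2409 lower genes, and grey points the 8954 that did not pass; the 12 labelled genes are among those with the largest differences.

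Genes of the integrated stress response had higher levels after the longer treatment. In this pathway, kinases that sense stress phosphorylate the initiation factor eIF2, general translation falls, and the ATF4 mRNA is translated more. Of 31 ATF4 and stress response genes tested, 24 rose and 2 fell, with a median log2 difference of 0.75. The kinase genes did not share this direction: Eif2ak2 and Eif2ak3 were the 2 that fell, at -0.34 and -0.38. Atf4 itself, which encodes the pathway's transcription factor, was at 376, 367 and 354 CPM at 24 h and 590.2, 600.0 and 603 CPM at 72 h. All 72 h libraries lay above all 24 h libraries, with a difference of 0.71 ± 0.04 (SE, n = 3 each; edgeR adjusted p = 8.66e-08). Ddit3, which encodes the ATF4 partner CHOP, was at 36.2, 36.1 and 35.7 CPM at 24 h and 63.3, 61.7 and 64.4 CPM at 72 h, a difference of 0.81 ± 0.05 (SE; edgeR adjusted p = 3.86e-07). Its exons overlap those of Mars and Gm4189 on the other strand, so its count is uncertain.

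Vldlr, the very low density lipoprotein receptor gene (ENSMUSG00000024924, GRCm38 chr19:27216484-27254231, plus strand), had the largest rise of the list. Its level was 9.24, 10.5 and 8.40 CPM at 24 h and 109, 97.9 and 107 CPM at 72 h, with no overlap between the groups. The difference was 3.48 ± 0.08 (SE; edgeR adjusted p = 5.21e-10), an 11.2-fold rise, and the control mean of 60.5 CPM lay between the 2 times. Ero1l (ENSMUSG00000021831, GRCm38 chr14:45283087-45318771, minus strand), an oxidase of the endoplasmic reticulum that is also a HIF target, rose 4.21-fold from 76.2 ± 2.14 to 319.6 ± 22.3 CPM (mean ± SD, n = 3 each). Slc7a11, the cystine transporter of glutathione supply, was at 28.6, 27.8 and 32.1 CPM at 24 h and 78.5, 89.2 and 87.9 CPM at 72 h. The groups did not overlap, and the difference was 1.53 ± 0.07 (SE; edgeR adjusted p = 3.71e-08). In 22 of the 24 genes that rose, the control mean lay nearer the 72 h mean than the 24 h mean.

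ATF4 binds with C/EBP partners to a composite element, searched here as TGATGNAA on both strands of RefSeq promoter windows (GRCm38.p6, 250 bases before to 50 after the start site). It was present in 10 of 34 promoters (29.4%) of the 26 list members with an entry, in 3.97% of all 32851 promoters and in 2.14% of those of genes tested. Among promoters of called genes, the share was 3.02% for genes higher and 2.09% for genes lower at 72 h. A match of these letters is a description and not a binding site. The stretches below show it, with the match nearest the start site in capitals, upstream of 3 members that rose, the cystine transporter gene Slc7a11, the glutathione-degrading enzyme gene Chac1 and Herpud1, a gene of endoplasmic reticulum protein degradation. They are written 5′ to 3′ in the direction of the gene, and capitals that read TTGCATCA are the element on the opposite strand.
Slc7a11, chr3:50443623-50443690, minus strand: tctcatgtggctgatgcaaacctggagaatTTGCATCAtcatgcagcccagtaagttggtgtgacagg
Chac1, chr2:119351019-119351086, plus strand: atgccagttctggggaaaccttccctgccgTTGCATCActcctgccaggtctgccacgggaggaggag
Herpud1, chr8:94386287-94386354, plus strand: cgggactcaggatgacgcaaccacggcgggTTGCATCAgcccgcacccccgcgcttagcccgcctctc
The differences of these genes were 1.53, 1.0 and 0.61.

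Genes of amino acid synthesis and one-carbon enzymes were mostly higher at 72 h. Of 22 such genes tested, 15 rose and 4 fell, with a median of 0.67. Lists here share members, so their counts are not separate results. Cth and Asns are also in the stress response list, and Ero1l is in that list and the HIF list. Slc7a11 is also in the amino acid transporter and NRF2 target lists below. Cth (ENSMUSG00000028179, GRCm38 chr3:157894248-157925077, minus strand), which makes cysteine from cystathionine, was at 10.5, 10.4 and 11 CPM at 24 h and 77.1, 69.9 and 74.1 CPM at 72 h. Every 72 h library was far above every 24 h library, and the difference was 2.79 ± 0.07 (SE; edgeR adjusted p = 5.21e-10), or 6.93-fold. Aldh1l2, the mitochondrial 10-formyltetrahydrofolate dehydrogenase gene, was at 94.3, 104 and 105 CPM at 24 h and 408, 413 and 436 CPM at 72 h, a difference of 2.06 ± 0.05 (SE; edgeR adjusted p = 5.21e-10), though its exons overlap an antisense gene. Asns, asparagine synthetase, was at 207, 202 and 208 CPM at 24 h and 526, 485 and 481 CPM at 72 h. That is a rise of 1.28 ± 0.04 (SE; edgeR adjusted p = 6.42e-09), to a level close to the control mean of 489 CPM. Gpt2, the mitochondrial alanine aminotransferase gene, rose by 1.23. The members that fell included Got2 (-0.26), Shmt1 (-0.31) and Tyms (-0.22), which encodes thymidylate synthase.

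Genes of tRNA charging were mostly higher. Of 22 cytosolic tRNA synthetase and scaffold genes, 15 rose and none fell, with a median of 0.42. Gars, the glycyl-tRNA synthetase gene, was at 399, 374 and 370.2 CPM at 24 h and 770.2, 725 and 686 CPM at 72 h, and its groups did not overlap, with a difference of 0.94 ± 0.05 (SE; edgeR adjusted p = 7.44e-08). Eprs, Lars and Tars, for glutamate with proline, leucine and threonine, rose by 0.79, 0.75 and 0.61. Amino acid transporters were mixed, with 8 of 21 higher, 5 lower and a median of 0.02. Among them Slc7a5, the large neutral amino acid transporter, was at 361, 353 and 350.4 CPM at 24 h and 683, 663 and 658 CPM at 72 h, a difference of 0.92 ± 0.04 (SE; edgeR adjusted p = 1e-08). Slc1a4, for alanine, serine and cysteine, rose by 1.15, and Slc6a9, a glycine transporter with antisense overlap, by 1.0. In the opposite direction were Slc36a1, Slc38a4, Slc7a2, Slc6a6 and Slc36a4, at -1.06, -1.34, -1.16, -0.42 and -0.22, which are all the members that fell.

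HIF targets and glycolysis genes were higher at 72 h. HIF is a dimer whose alpha subunit is degraded after prolyl hydroxylation, and its targets carry glucose uptake, glycolysis, pH control and mitophagy. Among 31 tested HIF1 targets that are not glycolytic, 25 rose and 4 fell, with a median of 0.77, and of 22 glycolysis and lactate export genes 15 rose and 2 fell, with a median of 0.55. Car9 (ENSMUSG00000028463, GRCm38 chr4:43506966-43513729, plus strand), a membrane carbonic anhydrase, was at 6.91, 10.4 and 8.01 CPM at 24 h and 52.5, 47.1 and 52 CPM at 72 h. The 24 h level was close to the control mean of 8.19 CPM and the 72 h libraries were all far above it, a difference of 2.59 ± 0.12 (SE; edgeR adjusted p = 2.67e-08), with an antisense gene, Gm12454, over its exons. Pdk1, the kinase that shuts pyruvate dehydrogenase, was at 35.5, 42.8 and 41.7 CPM at 24 h and 139, 136 and 134 CPM at 72 h, with separate groups and a difference of 1.78 ± 0.06 (SE; edgeR adjusted p = 6.92e-09). Bnip3, a mitophagy receptor, was at 50.3, 58.5 and 53.7 CPM at 24 h and 185, 181 and 175 CPM at 72 h. It rose by 1.74 ± 0.06 (SE; edgeR adjusted p = 3.48e-09). Fam162a, a mitochondrial protein gene, rose by 1.44, with an antisense gene over its exons.

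Along the glycolytic route, Slc2a1, the glucose transporter GLUT1, was at 69.1, 78.3 and 74.5 CPM at 24 h and 186, 169 and 172 CPM at 72 h, a difference of 1.25 ± 0.06 (SE; edgeR adjusted p = 2.46e-08). Pfkl, the liver-type phosphofructokinase, rose from 187 ± 8.87 to 416 ± 16 CPM (mean ± SD, n = 3 each). Pgk1 and Ldha, phosphoglycerate kinase and lactate dehydrogenase A, were among the most abundant members. Pgk1 was at 1066, 1021 and 1039 CPM at 24 h and 2427, 2165 and 2171 CPM at 72 h and Ldha at 947, 947 and 906 CPM at 24 h and 1795, 1713 and 1691 CPM at 72 h, both with separate groups. Their differences were 1.12 ± 0.04 (SE; edgeR adjusted p = 1e-08) and 0.90 ± 0.03 (SE; edgeR adjusted p = 8.82e-09). The exceptions were Pfkfb3 (-0.90), a regulator of phosphofructokinase, and the enolase gene Eno2 (-0.75). Among HIF targets outside glycolysis Angptl4 (-1.46), Adm (-1.17), Bhlhe40 (-0.52) and Loxl2 (-0.52) fell.

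The gene of the HIF subunit itself, Hif1a, was at 299.8, 299 and 293 CPM at 24 h and 399.6, 400.3 and 418 CPM at 72 h, a difference of 0.45 ± 0.04 (SE; edgeR adjusted p = 3.91e-06), and its exons overlap Gm49321. Epas1, which encodes HIF-2 alpha, was low at 4.44 ± 1.30 and 3.90 ± 0.289 CPM and did not pass, at -0.18 ± 0.24 (SE; edgeR adjusted p = 0.594). Unlike the stress response list, where the control mean lay nearer the 72 h mean in most members that rose, the control mean lay nearer the 72 h mean in 5 of the 25 HIF targets that rose and in 1 of the 15 glycolysis genes that rose. This contrast between lists was not tested. The core of the hypoxia response element, ACGTG, was found in 17 of 32 promoters (53.1%) of 22 HIF list members, in 25.4% of those of genes tested and in 19.6% of all promoters. Over all called genes the share hardly differed by direction, at 26.6% for genes higher and 26.3% for genes lower at 72 h. The windows of Bnip3, Fam162a and the collagen prolyl hydroxylase gene P4ha1 show the match nearest the start site in capitals, as CACGT where it lies on the opposite strand.
Bnip3, chr7:138909579-138909643, minus strand: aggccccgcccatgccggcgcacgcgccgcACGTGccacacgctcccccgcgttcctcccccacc
Fam162a, chr16:36071608-36071672, minus strand: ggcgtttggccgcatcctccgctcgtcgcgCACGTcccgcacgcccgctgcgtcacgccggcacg
P4ha1, chr10:59323250-59323295, plus strand: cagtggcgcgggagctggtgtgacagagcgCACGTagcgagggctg
P4ha1 and P4ha2 also belong to the collagen-modifying enzymes described further on.

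**Figure D2:**
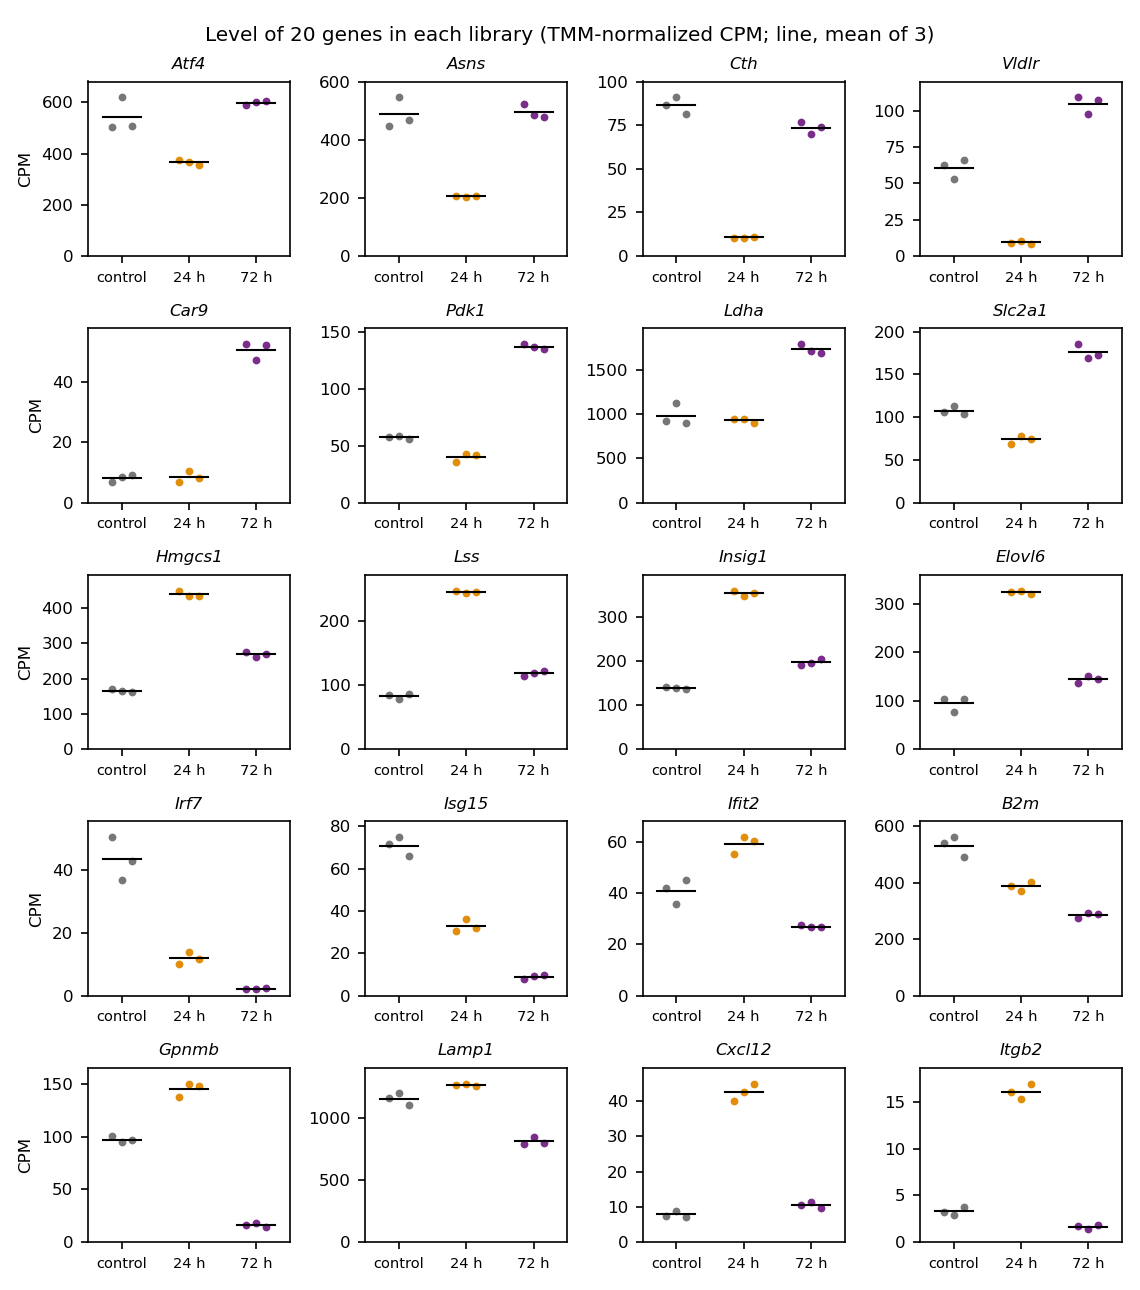
Level of 20 genes in CPM (vertical axes, each from 0) in the 3 control, 3 DPI 24 h and 3 DPI 72 h libraries (1 point each; line, mean of 3). The 24 h and 72 h points do not overlap in any of the 20 genes; the control points lie near the 72 h points for Asns and Cth, near the 24 h points for Car9 and Ldha, below both for Hmgcs1 and Lss, and above both for Irf7 and Isg15.

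Sterol synthesis genes were lower at 72 h than at 24 h along the whole route. SREBP-2 is held in the endoplasmic reticulum by INSIG proteins when sterol is plentiful and otherwise switches on the enzymes from acetyl-CoA to cholesterol and the LDL receptor. Of 24 sterol synthesis and LDL receptor genes tested, 23 fell and none rose, with a median of -0.72. The single gene that did not pass was Tm7sf2, a sterol reductase, at -0.06. At the start of the route, Acat2, the cytosolic acetyl-CoA acetyltransferase, was at 261, 252 and 242 CPM at 24 h and 122, 116 and 115 CPM at 72 h, with a difference of -1.09 ± 0.04 (SE; edgeR adjusted p = 1.27e-08). Midway, Lss, lanosterol synthase (ENSMUSG00000033105, GRCm38 chr10:76531588-76557138, plus strand), was at 247, 243 and 245 CPM at 24 h and 114, 118 and 122 CPM at 72 h. All 72 h libraries were below all 24 h libraries, with a difference of -1.05 ± 0.04 (SE; edgeR adjusted p = 1e-08), and an antisense gene overlaps its exons. Cyp51, lanosterol demethylase, fell by 1.11 on the log2 scale, also with antisense overlap. Insig1, the sterol sensor's anchor and itself an SREBP target, was at 361, 348 and 356 CPM at 24 h and 193, 197 and 206 CPM at 72 h, a difference of -0.83 ± 0.04 (SE; edgeR adjusted p = 5.55e-08).

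Levels at 72 h were still above control. For all 23 genes that fell, the control mean lay below both the 24 h and the 72 h mean, against 38.1% of all lower genes. The median list level against the 24 h mean was -0.71 to -0.75 in the 72 h libraries and -1.25 to -1.31 in the control libraries. Among the regulators, Srebf2 (SREBP-2) fell by 0.25 on the log2 scale (edgeR adjusted p = 0.00112). Srebf1 (SREBP-1), at 159.6, 168 and 151 CPM at 24 h and 186, 182 and 176 CPM at 72 h, differed by 0.18 ± 0.05 (SE; edgeR adjusted p = 0.0108), with an adjusted p of 0.0583 without 24 h replicate 3, 0.0549 with all 9 libraries in 1 fit, and an antisense gene over its exons. The element TCACNCCAC was in 1 of 20 promoters (5%) of 17 list members, in 1.1% of those of genes tested and in 1.24% of all promoters. The one member was Hmgcs1, HMG-CoA synthase, which stood at 449.5, 433 and 433 CPM at 24 h and 276, 262 and 270.0 CPM at 72 h (difference -0.70), and its window is shown with the element in capitals.
Hmgcs1, chr13:119690184-119690252, plus strand: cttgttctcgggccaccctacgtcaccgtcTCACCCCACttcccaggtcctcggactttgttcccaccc
The element TCACNCCAC was in 1.07% of promoters of genes higher at 72 h and in 1.21% of those of genes lower. None of the 4 searched elements contains another.

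Fatty acid and triglyceride genes did not move as one. Of 22 tested, 11 fell and 4 rose (median -0.15). For all 11 that fell the control mean lay below both times, against 38.1% of all lower genes. Elovl6, which elongates saturated chains, was at 325, 327 and 320.0 CPM at 24 h and 137, 151 and 146 CPM at 72 h, with a difference of -1.16 ± 0.05 (SE; edgeR adjusted p = 1e-08). The desaturase genes Fads1 and Fads2 fell by 0.26 and 0.31 on the log2 scale, and Fads3 rose by 0.51. Sterol export was read from 10 LXR targets and efflux genes, of which 1 rose and 4 fell. The one that rose was Abca1, the cholesterol efflux pump, at 39.9, 47.1 and 38.9 CPM at 24 h and 103, 95 and 107 CPM at 72 h, a difference of 1.28 ± 0.07 (SE; edgeR adjusted p = 1.81e-07). Npc2 and Plin2, a lysosomal sterol carrier and a lipid droplet coat protein, fell by 0.54 and 0.34 on the log2 scale. Nr1h2, which encodes LXR-beta, was lower by 0.26 on the log2 scale (edgeR adjusted p = 0.0167), and its adjusted p ran to 0.0735 without 72 h replicate 2 and lay above the threshold also without 72 h replicate 3 or 24 h replicate 2 or 3.

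**Figure D3:**
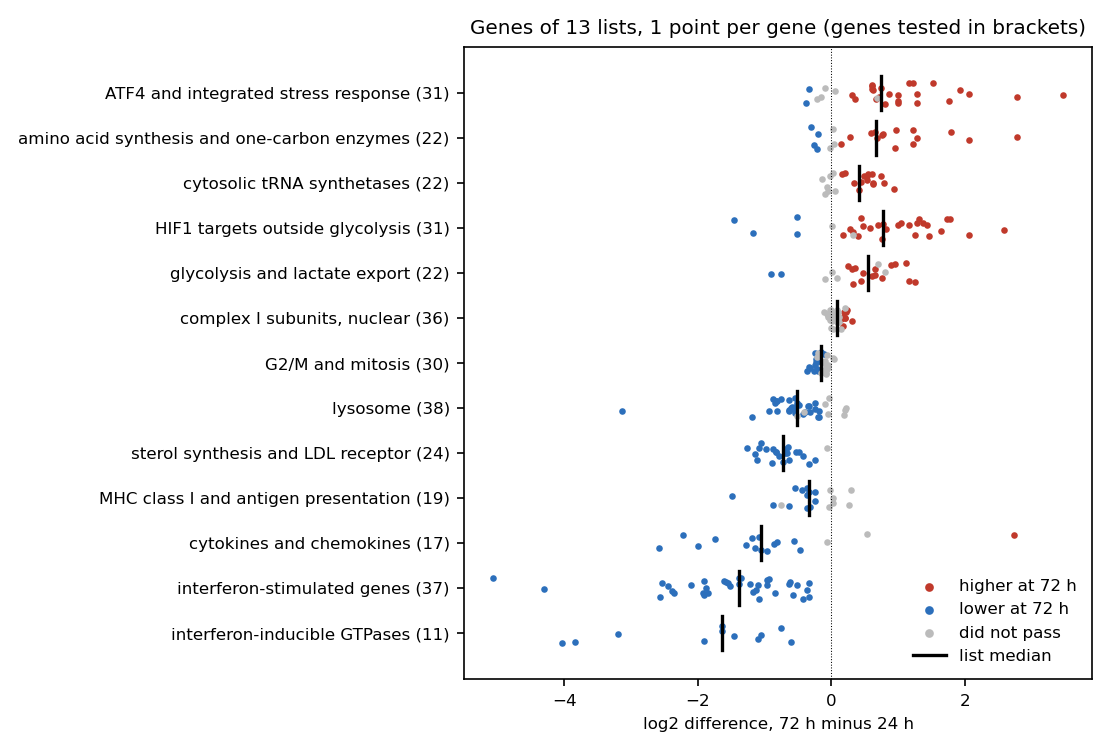
Log2 difference between 72 h and 24 h (horizontal axis) of the genes of 13 lists (vertical axis, genes tested in brackets), with the list median as a black line. List medians run from 0.77 for HIF1 targets to -1.63 for interferon-inducible GTPases; grey points did not pass the test.

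Interferon-stimulated genes were lower at 72 h in every case tested. These genes encode antiviral effectors and are driven by interferon signalling. All 37 tested members fell, with a median of -1.38. Isg15 (ENSMUSG00000035692, GRCm38 chr4:156199424-156200818, minus strand), a ubiquitin-like protein, was at 30.7, 36.2 and 32.1 CPM at 24 h and 7.89, 9.20 and 9.68 CPM at 72 h. The 72 h libraries were all below the 24 h libraries, and the difference was -1.88 ± 0.10 (SE; edgeR adjusted p = 1.06e-07). Irf7, which amplifies interferon production, was at 10.2, 13.8 and 11.7 CPM at 24 h and 2.06, 2.29 and 2.58 CPM at 72 h, down from a control mean of 43.5 CPM, and differed by -2.36 ± 0.18 (SE; edgeR adjusted p = 1.88e-06), with Phrf1 overlapping it on the other strand. Ifit3, an RNA-binding antiviral protein with a near-identical copy (Ifit3b) that makes its count uncertain, was at 16.2, 25.9 and 23.7 CPM at 24 h and 2.25, 4.45 and 5.35 CPM at 72 h, a fall of 2.45 on the log2 scale. Ifit2, Oasl1, Lgals3bp and Cmpk2 fell by 1.13, 1.52, 1.55 and 2.39.

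Irf9, which encodes a transcription factor of interferon signalling, fell by 0.85 (edgeR adjusted p = 0.00103), with Rnf31 overlapping its exons. In 36 of the 37 genes the control mean lay above both times, so that levels were ordered control, 24 h, 72 h, and in 1 gene it lay between. The macrophage markers given above also summed to slightly less at 72 h, lymphocyte markers were at or near 0 at both times, and the part of other cell types in this difference was not tested. The interferon response element, searched on both strands as GAAA, any 2 bases and GAAA again, was in 13 of 30 promoters (43.3%) of 27 list members, in 2.99% of those of genes tested and in 3.44% of all promoters. Among promoters of called genes, it was in 2.31% for genes higher and 4.44% for genes lower at 72 h. The windows of 3 members that fell are shown, with the match nearest the start site in capitals, as its reverse complement (TTTC at each end) for Rsad2 and Ifit1. Isg15 has 3 matches upstream of its start site and Ifit1 has 2, and those not in capitals are in lower case or outside the stretch shown.
Isg15, chr4:156200845-156200914, minus strand: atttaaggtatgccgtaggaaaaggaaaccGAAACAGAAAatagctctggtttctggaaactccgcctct
Rsad2, chr12:26456533-26456602, minus strand: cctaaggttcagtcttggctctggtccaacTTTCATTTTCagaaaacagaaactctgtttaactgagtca
Ifit1, chr19:34640774-34640843, plus strand: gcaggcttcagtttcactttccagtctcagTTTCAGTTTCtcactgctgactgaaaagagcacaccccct
Rsad2 (viperin) and Ifit1 differed by -1.92 and -1.38.

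Interferon-inducible GTPases, which attack the vacuoles of intracellular pathogens, fell in all 11 cases tested, with a median of -1.63. Gvin1 (ENSMUSG00000045868, GRCm38 chr7:106156556-106215326, minus strand), a very large GTPase, had the largest fall among the genes named by rule. It was at 160.1, 220.0 and 156 CPM at 24 h and 7.23, 8.65 and 16.8 CPM at 72 h, with a difference of -4.04 ± 0.22 (SE; edgeR adjusted p = 1.18e-07), and it shares sequence with related genes such as the predicted gene Gm4070, so its count is uncertain. Irgm1 was at 23.5, 27.7 and 24.6 CPM at 24 h and 11.8, 10.6 and 12.7 CPM at 72 h, a difference of -1.10 ± 0.10 (SE; edgeR adjusted p = 7.71e-06). Gbp3 and Irgm2 fell by 1.64 and 1.63 on the log2 scale, the latter with Igtp over its exons. Of 19 antigen presentation genes, 12 fell and none rose, with a median of -0.33, and 7 fell at an adjusted p under 0.01. Tapbp, tapasin, which loads peptide on MHC class I and overlaps Zbtb22, was at 174, 192 and 191 CPM at 24 h and 107, 96.2 and 99.1 CPM at 72 h, a difference of -0.88 ± 0.05 (SE; edgeR adjusted p = 3.06e-07). B2m, the light chain of MHC class I, was at 388, 369 and 402 CPM at 24 h and 274, 292 and 288 CPM at 72 h, with separate groups and a difference of -0.44 ± 0.05 (SE; edgeR adjusted p = 2.23e-05). Nlrc5, the transactivator of MHC class I genes, and Erap1, a peptide trimmer with antisense overlap, fell by 0.64 and 0.37. The heavy chain genes H2-K1 (0.03) and H2-D1 (-0.03) did not pass. They are near-identical in parts, so their counts are uncertain.

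**Figure D4:**
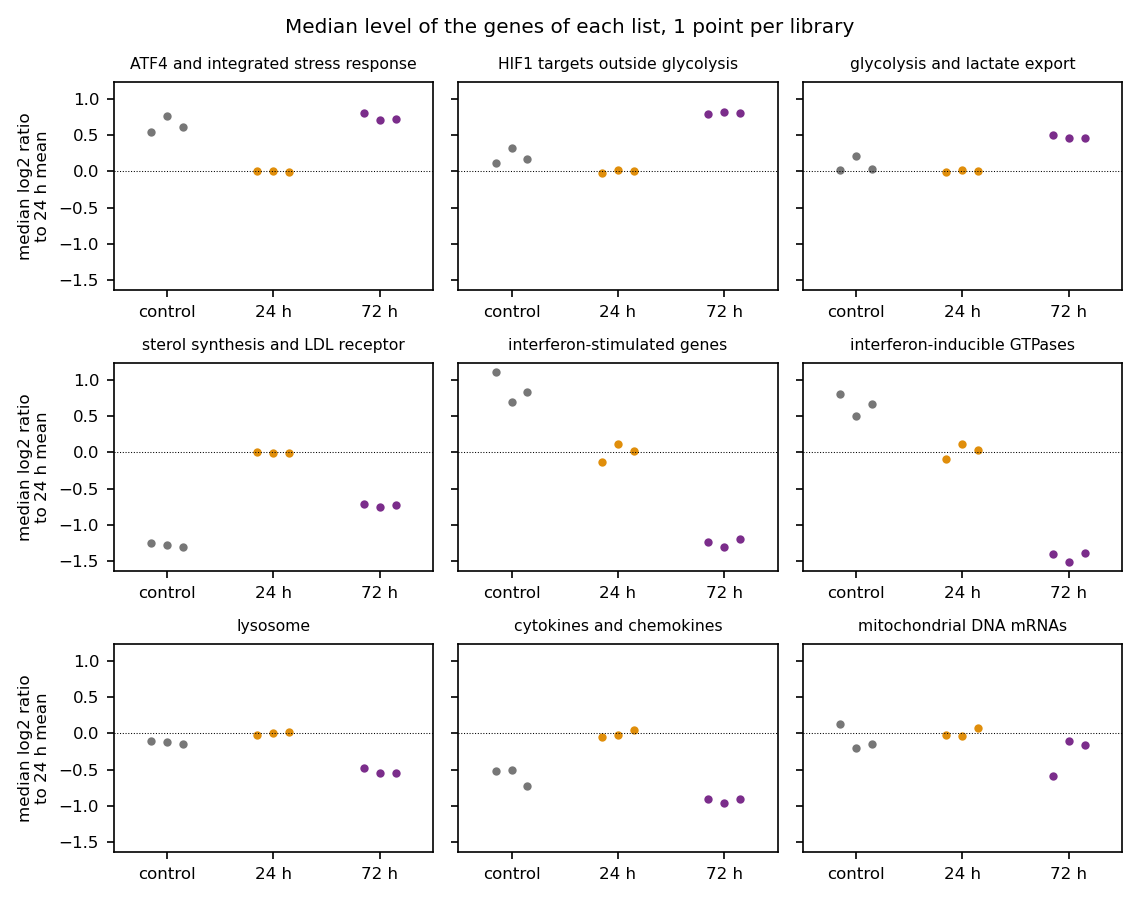
Median over the genes of each of 9 lists of the log2 ratio to the 24 h mean (vertical axis, 24 h near 0 by construction) in each control, DPI 24 h and DPI 72 h library (1 point each). The 72 h libraries lie apart from the 24 h libraries in all 9 panels; for mitochondrial DNA mRNAs 72 h replicate 1 is at -0.58 and the other 72 h libraries are at -0.11 and -0.16.

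Lysosomal genes were lower at 72 h. Of 38 hydrolase, membrane protein and proton pump genes, 30 fell and none rose, with a median of -0.51, and for 22 of the 30 the control mean lay between the 2 times. Gpnmb (ENSMUSG00000029816, GRCm38 chr6:49036546-49070929, plus strand), a transmembrane glycoprotein of lysosomes and melanosomes, was at 138, 149.8 and 148 CPM at 24 h and 16.6, 18 and 14.5 CPM at 72 h. No 72 h library came near a 24 h library, and the difference was -3.14 ± 0.07 (SE; edgeR adjusted p = 5.21e-10), an 8.83-fold fall. Lamp1, the main lysosomal membrane protein, was at 1263, 1273 and 1254 CPM at 24 h and 791, 848 and 797 CPM at 72 h, a difference of -0.63 ± 0.03 (SE; edgeR adjusted p = 1.23e-07). Tpp1 and Ctsa, a tripeptidyl peptidase and cathepsin A, fell by 0.87 and 0.94 on the log2 scale, and exons of Lamp1 and Ctsa have antisense overlap. Of 33 autophagy genes, 8 fell and 2 rose (median -0.06), a smaller share called than the 34.2% of all genes. The lower ones included Gabarap and Map1lc3b, which coat autophagosomes. Gabarap was at 239, 234 and 250.3 CPM at 24 h and 146, 146 and 145 CPM at 72 h, a difference of -0.72 ± 0.04 (SE; edgeR adjusted p = 1.7e-07), and Map1lc3b fell by 0.61. Uvrag and the cargo receptor gene Sqstm1 fell by 0.58 and 0.30. Exons of Map1lc3b and Sqstm1 have antisense overlap.

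Cytokine, chemokine and related genes were mostly lower at 72 h, 14 of 17 tested against 1 higher, with a median of -1.05. The list also holds receptor and adhesion genes. Cxcl12, the ligand of CXCR4, was at 40, 42.5 and 44.8 CPM at 24 h and 10.6, 11.4 and 9.80 CPM at 72 h. Both its 72 h and its control libraries (mean 7.94 CPM) were low and its 24 h libraries high, with a 72 h difference of -2.0 ± 0.08 (SE; edgeR adjusted p = 1.39e-08). Il1rn, the interleukin-1 receptor antagonist gene, was at 30.6, 28.3 and 37.5 CPM at 24 h and 4.62, 6.12 and 5.35 CPM at 72 h, a fall of 2.58. Il1rl1, the receptor of interleukin-33, and the adhesion molecule gene Vcam1 fell by 0.86 and 0.96. The exception was Ptx3 (ENSMUSG00000027832, GRCm38 chr3:66219910-66225805, plus strand), a secreted pattern recognition protein, at 11.4, 10.8 and 11.4 CPM at 24 h and 74.9, 70.7 and 78 CPM at 72 h. Its groups were widely separate, with a difference of 2.74 ± 0.07 (SE; edgeR adjusted p = 5.21e-10), and the control mean of 116 CPM was above both.

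Matrix genes moved in both directions. Of 19 collagen chain genes, 5 rose and 7 fell, with a median of -0.11. Col8a1 and Col5a3 fell by 0.76 and 1.33, while Col6a3, at 199.9, 222 and 216 CPM at 24 h and 364, 356 and 345 CPM at 72 h, rose by 0.74 ± 0.05 (SE; edgeR adjusted p = 3.61e-07) and Col18a1 by 0.44. The main chain of fibrillar collagen, Col1a1, was at 4035, 4293 and 4178 CPM at 24 h and 4056, 3201 and 3241 CPM at 72 h. Its groups overlapped and its call, at a difference of -0.25 ± 0.07 (SE; edgeR adjusted p = 0.0195), was lost without 24 h replicate 2 or 3 or 72 h replicate 2 or 3, with adjusted p of 0.0601 to 0.0853, and with all 9 libraries in 1 fit (0.0583). Other matrix genes were lower in 13 and higher in 5 of 29 cases. Among them Fn1, fibronectin, was at 3502, 3761 and 3677 CPM at 24 h and 2469, 2352 and 2427 CPM at 72 h, a difference of -0.59 ± 0.03 (SE; edgeR adjusted p = 9.29e-08). The edgeR adjusted p of Fn1 was 0.0549 with all 9 libraries in 1 fit, and 7.61e-08 with control replicate 2 left out of that fit. Nid1, the basement membrane linker nidogen, rose by 0.84. Lama5 and Acan fell by 0.84 and 0.98, and the chondrocyte markers, mostly Sox9 and Acan, summed to 124 to 127 CPM at 24 h and 71.3 to 81.5 CPM at 72 h.

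Enzymes that modify collagen rose for 10 and fell for 5 of 20 genes, with a median of 0.21. The prolyl hydroxylase gene P4ha2 was at 66.4, 65.3 and 65.9 CPM at 24 h and 148, 143 and 149 CPM at 72 h, a rise of 1.16 ± 0.04 (SE; edgeR adjusted p = 6.92e-09). P4ha1 and the lysyl hydroxylase gene Plod2 rose by 0.77 and 0.58, and the lysyl oxidase gene Loxl1 fell by 0.55. Exons of Plod2 have antisense overlap. Of 19 metalloproteinase and inhibitor genes, 7 rose and 3 fell, with a median of 0.30. Mmp2, gelatinase A, was at 272, 289.9 and 272 CPM at 24 h and 124, 117 and 119 CPM at 72 h, a difference of -1.21 ± 0.04 (SE; edgeR adjusted p = 6.92e-09), and Mmp14, its membrane-bound activator, fell by 0.39. Timp3, an inhibitor with an antisense gene, and Adamts1 rose by 0.67 and 0.77. Of 14 contractile, SRF and YAP genes, 6 fell and 2 rose. Acta2, smooth muscle actin, was at 12.8, 12.5 and 9.92 CPM at 24 h and 5.10, 5.19 and 4.06 CPM at 72 h, a difference of -1.29 ± 0.16 (SE; edgeR adjusted p = 9.2e-05), and the more abundant Tpm1, tropomyosin, fell by 0.73. Ankrd1 and Cnn2 fell by 0.60 and 0.35.

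In the TGF-beta and BMP family, 4 of 20 genes rose (20%) and 7 fell (35%), against 16.5% and 17.7% of all genes. The inhibitors of helix-loop-helix factors Id1 and Id3, which BMP signals induce, were among those that rose. Id3 (ENSMUSG00000007872, GRCm38 chr4:136143497-136145755, plus strand) was at 15, 16.4 and 14.4 CPM at 24 h and 59, 68.4 and 63.5 CPM at 72 h, with no overlap and a difference of 2.07 ± 0.08 (SE; edgeR adjusted p = 7.99e-09). Id1 was at 5.99, 6.52 and 7.10 CPM at 24 h and 22.4, 29.1 and 19.9 CPM at 72 h, a difference of 1.87 ± 0.15 (SE; edgeR adjusted p = 2.49e-06). The signal transducer gene Smad3 fell by 0.61. In the insulin-like growth factor axis, 7 of 12 genes fell and 2 rose (median -0.49). Igfbp3, a binding protein, was at 31.9, 35.8 and 40.3 CPM at 24 h and 11.6, 14.9 and 11.1 CPM at 72 h, a difference of -1.52 ± 0.12 (SE; edgeR adjusted p = 2.36e-06). Igfbp7 and the adaptor gene Irs1, both with antisense overlap, fell by 1.55 and 1.11, and Igfbp4 rose by 0.65.

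Several of the largest differences lay outside these lists. Cdsn (ENSMUSG00000039518, GRCm38 chr17:35552128-35557180, plus strand), corneodesmosin of the epidermis, was at 6.18, 7.43 and 6.26 CPM at 24 h and 116, 93.9 and 113 CPM at 72 h. The 24 h libraries were low against both the 72 h libraries and the control mean of 163 CPM, and the difference was 4.03 ± 0.11 (SE; edgeR adjusted p = 7.22e-10), or 16.3-fold. Krt16, an epidermal keratin, was at 0.734, 0.670 and 1.07 CPM at 24 h and 10.9, 11.6 and 12.3 CPM at 72 h, a rise of 3.80 ± 0.21 (SE; edgeR adjusted p = 1.43e-07). Epithelial and keratinocyte markers summed to 12.1 to 15.3 CPM at 24 h and 46.1 to 53 CPM at 72 h, mostly Krt19, while Krt5 was at 0 and Epcam at or near 0. From 24 h to 72 h, group means went from 1.21 to 3.87 CPM for Krt8, from 0.0392 to 1.78 CPM for Krt14 and from 0.117 to 0.562 CPM for Cdh1, each with separate groups. Trp63 (means 0.713 and 1.21 CPM) and Krt18 (0.0814 and 0.307 CPM) had overlapping groups. Cldn4 went the other way, from 0.0579 to 0 CPM. In the control libraries these markers summed to 21.4 to 29.4 CPM. The part of epithelial cells in these differences was not tested. Car6 (ENSMUSG00000028972, GRCm38 chr4:150187015-150201332, minus strand), a secreted carbonic anhydrase, was at 2.26, 3.59 and 2.88 CPM at 24 h and 33.3, 36.1 and 37.9 CPM at 72 h, a difference of 3.62 ± 0.13 (SE; edgeR adjusted p = 7.44e-09), with a control mean of 102 CPM. Rgs2, which quenches G protein signals, was at 2.02, 2.38 and 2.20 CPM at 24 h and 27.6, 23.4 and 20.1 CPM at 72 h, with separate groups, with a difference of 3.43 ± 0.16 (SE; edgeR adjusted p = 2.91e-08). The glucuronosyltransferase gene Ugt1a6a and the acyl-CoA thioesterase gene Acot2 rose by 2.61 and 2.07. Ugt1a6a shares its last exons with other genes of its locus, so its count is uncertain.

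Among the largest decreases, Itgb2 (ENSMUSG00000000290, GRCm38 chr10:77530252-77565708, plus strand), the beta chain of leukocyte integrins, was at 16, 15.3 and 16.9 CPM at 24 h and 1.76, 1.42 and 1.87 CPM at 72 h. It was high in the 24 h libraries alone (control mean 3.30 CPM), and the difference was -3.24 ± 0.15 (SE; edgeR adjusted p = 4.14e-08). Macc1, a regulator of the MET receptor gene, and Dapk2, a death-associated kinase, were also high at 24 h alone, with 24 h means of 13.6 ± 1.13 and 15.1 ± 0.614 CPM, 72 h means of 2.07 ± 0.850 and 2.95 ± 0.131 CPM (mean ± SD, n = 3 each) and control means of 2.58 and 2.70 CPM. Klhl30, a Kelch-family gene, was at 50.8, 56 and 55.3 CPM at 24 h and 9.96, 8.65 and 11 CPM at 72 h, a difference of -2.45 ± 0.09 (SE; edgeR adjusted p = 6.92e-09). The complement gene C3 was at 24.7, 31.4 and 29.9 CPM at 24 h and 5.53, 5.0 and 5.22 CPM at 72 h, a difference of -2.44 ± 0.12 (SE; edgeR adjusted p = 4.81e-08), and Cd300lb, a myeloid receptor gene, fell by 2.39. Of the macrophage markers, Adgre1 was at 0 and Ptprc at or near 0 in the 24 h and 72 h libraries. Cd68 had a mean of 4.19 CPM at 24 h and 2.42 CPM at 72 h, with separate groups, and Cd14 had means of 4.25 and 3.65 CPM, with overlapping groups. Mrc1 went the other way, from a mean of 0.342 to 0.765 CPM, also with overlapping groups. The part of such cells in these decreases was not tested.

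Protein-folding and antioxidant genes showed no common direction. Among 23 genes of endoplasmic reticulum chaperones and the unfolded protein response, 8 rose and 11 fell. Herpud1 rose by 0.61, and the lectin chaperone gene Calr, at 1107, 1120.5 and 1143 CPM at 24 h and 850.0, 837 and 848 CPM at 72 h, fell by 0.41 on the log2 scale (edgeR adjusted p = 1.82e-06). Canx and Creld2 fell by 0.30 and 0.44. Of 15 cytosolic heat shock genes, 5 rose (33.3%) and 4 fell (26.7%), against 16.5% and 17.7% of all genes. The small heat shock protein gene Cryab rose from a low level, by 1.51, and Hspa8, the constitutive chaperone, by 0.15, whereas Hsph1 and Hspa1b fell by 0.28 and 0.37 (Hspa1b has a near-identical copy, so its count is uncertain). Of 31 NRF2 targets and peroxide defence genes, 7 rose and 6 fell, shares near those of all genes. Nqo1, quinone reductase, was at 32.2, 28.9 and 29.7 CPM at 24 h and 54.4, 63.4 and 56.6 CPM at 72 h, a difference of 0.95 ± 0.07 (SE; edgeR adjusted p = 1.88e-06), Gsta4 rose by 0.87, and Txnrd1 fell by 0.21.

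Cell cycle genes differed by small amounts. Of 30 G2/M and mitosis genes, 14 fell and none rose, with a median of -0.15. Plk1, the mitotic kinase, was at 119.6, 124 and 130.2 CPM at 24 h and 99.4, 95.5 and 95.5 CPM at 72 h, a difference of -0.36 ± 0.05 (SE; edgeR adjusted p = 0.00011). Cenpa, Kif20a and Nusap1 fell by 0.32, 0.33 and 0.22, the last pair with antisense overlap. Of 30 replication and G1/S genes, 9 fell (30%) and 2 rose (6.67%), against 17.7% and 16.5% of all genes. Ccnd2, cyclin D2, was at 289, 299.5 and 305 CPM at 24 h and 488, 486 and 487 CPM at 72 h, a rise of 0.71 ± 0.04 (SE; edgeR adjusted p = 8.66e-08), and the primase gene Prim1 fell by 0.19. Ccne1 (-0.32) and Mcm3 (-0.18) passed with all 6 libraries but had edgeR adjusted p of 0.0598 and 0.0512 without 24 h replicate 2. Of 25 p53 targets and CDK inhibitors, 9 fell (36%) and 2 rose (8%). Cdkn2b and Cdkn2a, which neighbour each other, fell by 0.53 and 0.30, Ccng1 fell by 0.26, and Perp rose by 0.29. The call of Cdkn2a was lost with all 9 libraries in 1 fit (edgeR adjusted p = 0.0541) and kept with control replicate 2 left out of that fit (edgeR adjusted p = 0.00016).

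Clock and immediate early genes varied gene by gene. Hlf, a clock output factor, was at 36.5, 37.9 and 33.8 CPM at 24 h and 7.53, 7.17 and 9.35 CPM at 72 h, a difference of -2.17 ± 0.10 (SE; edgeR adjusted p = 4.44e-08), and Bhlhe40, a clock repressor gene, fell by 0.52. These were the 2 of 17 clock genes that fell, and 7 rose, including the repressor genes Ciart (1.23) and Nfil3 (0.76). Of 26 immediate early genes, 10 rose and 7 fell. Egr1 was at 151, 177 and 180.4 CPM at 24 h and 57.1, 81.5 and 75.1 CPM at 72 h, a difference of -1.25 ± 0.11 (SE; edgeR adjusted p = 5.14e-06). Maff fell by 1.01, while Klf2, a Krüppel-like factor, rose by 1.18 and Jund, with antisense overlap, by 0.37, a call lost with all 9 libraries in 1 fit (edgeR adjusted p = 0.0545). The hour of collection is not in the labels.

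Nuclear genes of complex I differed little. Complex I has a flavin-bearing arm with NDUFV1, which holds the FMN, and NDUFV2, and a membrane arm with subunits encoded in mitochondrial DNA. Of 36 nuclear subunit genes, 9 rose (25%, against 16.5% of all genes) and none fell (17.7% of all genes), with a median of 0.08 and differences from -0.11 to 0.31. The FMN-binding Ndufv1 was at 114, 109.8 and 113 CPM at 24 h and 116, 96.1 and 109.5 CPM at 72 h. Its groups overlapped and it did not pass, at -0.06 ± 0.06 (SE; edgeR adjusted p = 0.498). Ndufv2 was at 95.9, 88.8 and 92.1 CPM at 24 h and 102, 111 and 106 CPM at 72 h, a rise of 0.21 ± 0.05 (SE; edgeR adjusted p = 0.00746), and Ndufs1, the largest iron-sulfur subunit, did not pass, at 0.10 ± 0.05 (SE; edgeR adjusted p = 0.129). Ndufa7, Ndufa13 and Ndufb11 rose by 0.31, 0.22 and 0.19, the last with antisense overlap. Exons of Ndufs1 also have antisense overlap. The count of 9 fell to 5 without 24 h replicate 3, to 5 by DESeq2 and to 0 when all 9 libraries shared 1 estimate of spread. Control replicate 2 had a list median of 0.45 against the 24 h mean, where the other controls had 0.03 and 0.08, and with it left out of that fit the count was 8.

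Of 19 complex I assembly factors, 1 rose and 1 fell. They were Acad9 (0.32), itself a flavoprotein, and Ecsit (-0.28). In flavin supply, 1 of 7 genes passed (14.3%, against 34.2% of all genes). Rfk, riboflavin kinase, which makes FMN, was at 49, 47.8 and 44.5 CPM at 24 h and 51.1, 55.2 and 52.3 CPM at 72 h, a difference of 0.17 ± 0.06 (SE; edgeR adjusted p = 0.0408), and its adjusted p reached 0.148 without 24 h replicate 3, with the call also lost without 24 h replicate 2 or 72 h replicate 2 or 3. It was 0.172 with all 9 libraries in 1 fit and 0.0614 with the replicate number as a block (edgeR adjusted p). Flad1, which makes FAD, and Slc25a32, a mitochondrial flavin or folate carrier, did not pass, at -0.05 ± 0.12 (SE; edgeR adjusted p = 0.76) and -0.06 ± 0.06 (SE; edgeR adjusted p = 0.481). With these standard errors, small differences in either direction were not detectable.

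Transcripts of mitochondrial DNA were uneven. Of 13 mRNAs, 5 fell and 2 rose (median -0.23), and the median was -0.12 without 72 h replicate 1, where 4 fell and 2 rose. Without 24 h replicate 2, 3 fell and 1 rose. The cytochrome b gene mt-Cytb was at 2615, 2622 and 2789 CPM at 24 h and 1215, 1759.7 and 1707 CPM at 72 h. The 72 h libraries were all lower, replicate 1 most, and the difference was -0.77 ± 0.11 (SE; edgeR adjusted p = 0.000191). The complex I genes mt-Nd2 and mt-Nd4 fell by 0.71 and 0.52, and by 0.53 and 0.35 without 72 h replicate 1, and mt-Nd4 overlaps mt-Nd4l. In the other direction mt-Co1, a catalytic subunit of cytochrome oxidase, was at 5214, 4901 and 5492 CPM at 24 h and 5993, 7101 and 6996 CPM at 72 h, a rise of 0.37 ± 0.06 (SE; edgeR adjusted p = 0.00052). It overlaps mt-Ts1 on the other strand.

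The position of the control level was counted for the genes that differed. The control mean lay nearer the 72 h mean than the 24 h mean for 71.3% of the higher genes and 69.1% of the lower genes, and for 61.7% of all genes tested. Among genes that differed at least 2-fold, the control mean lay nearer the 72 h mean for 68.6% of the higher genes. For the lower genes of that size the share was 54.6%, below that of all genes tested. It lay between the 2 times for 52.7% of the higher and 51.8% of the lower genes. The control mean lay above both for 36.6% of the higher genes, against 42.1% of all tested genes with a higher 72 h mean. It lay below both for 38.1% of the lower genes, against 41% of all tested genes with a lower 72 h mean. For 10.8% of the higher genes it lay below both, against 24.5% of all tested genes with a higher 72 h mean. For 10% of the lower genes it lay above both, against 23.5% of all tested genes with a lower 72 h mean, and this class held 36 of the 37 interferon-stimulated genes. These are positions of means and no test was made of them. The control means include control replicate 2, whose counts stood apart from those of the other controls. Chi-square per degree of freedom, a measure of how far 2 libraries differ, was 34.6 and 29.3 in its pairs. Between control replicates 1 and 3 that measure was 4.46.

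**Figure D5:**
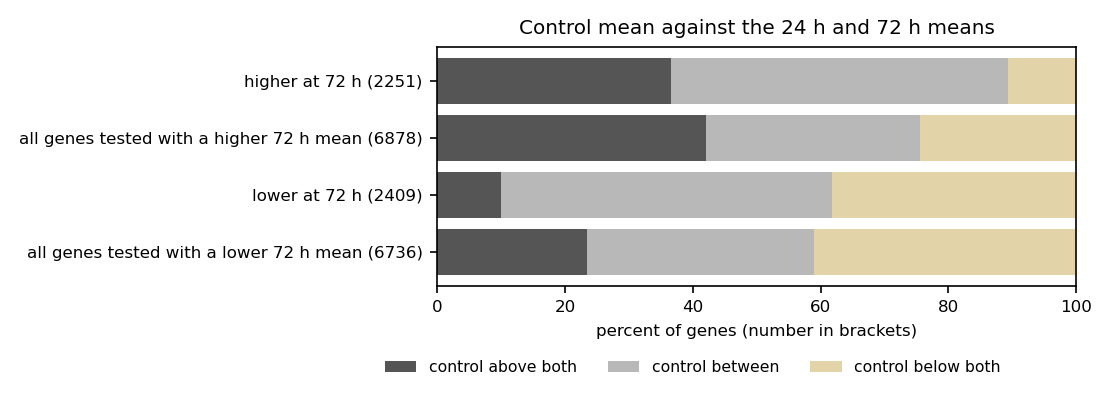
Percent of genes (horizontal axis) whose control mean lies above both, between or below both the 24 h and 72 h means, for genes higher or lower at 72 h and for all genes tested with a higher or lower 72 h mean (number in brackets). The control lies between for 52.7% of the 2251 higher genes, against 33.4% of the 6878 genes with a higher 72 h mean.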

How the data were processed

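Total RNA of the fibroblasts was purified on columns and sequenced on an Illumina instrument, per the labels' protocols. Tools named in the submitters' processing notes are Trim Galore and cutadapt, STAR and RSEM, edgeR and limma, with the build GRCm38 but no roles. Annotation release and strand setting are not stated there, so antisense and overlapping genes cannot be told apart. The authors deposited whole-number read counts per Ensembl gene, which were used here, and a second table that was not used. The 105 IDs without a symbol in the GENCODE annotation of GRCm38 held 0.009% of counts.

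The 6 DPI libraries were fitted alone in edgeR 4.0.16 (R 4.3.3; filterByExpr by group, TMM scaling, glmQLFit and glmQLFTest, two-sided), with Benjamini-Hochberg adjustment over 13614 genes and a threshold of 0.05. Standard errors were taken as the log2 difference over the square root of the F statistic. Alternatives used DESeq2 1.42.0, limma 3.58.1, other scalings and filters, and each library left out. For a single value per library, 3 against 3 cannot give an exact p under 0.1.

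The comparison, the 34 gene lists and the rules were chosen with earlier results of these data known. Named genes are the 12 largest increases and 12 largest decreases (adjusted p under 0.05, mean of at least 5 CPM, no overlap, predicted symbols skipped), from each list with at least 3 called members the 4 of smallest p, and a fixed set. Members named as exceptions of a list or for their promoter were chosen after their values were seen. Simulated counts with 200 changed genes were used to test the fit. With gene-wise spread (13401 genes), 71% of 1.5-fold, 85.7% of 2-fold and 95.6% of 4-fold changes were recovered, and 9.63% of calls were unchanged genes. With spread on the trend (13395 genes) that share was 1.72%. In the data 34.2% of genes were called, far more than the 200 changed in the simulation. The simulated shares may therefore not carry over to this comparison. Some genes named by these rules are not reported here.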

Additional observations from a re-analysis of the deposited data

How the results depend on the processing

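Across the alternatives, no gene called in both was called in opposite directions. Calls numbered 3643 to 4272 with 1 library left out, 4177 with DESeq2, 4686 with limma voom, and 4662 to 4704 with other scalings, where the higher share of calls ranged from 44.5% (library size alone) to 54.1% (upper quartile), against 48.3% with TMM. With all 9 libraries in 1 fit, 3001 genes were called (1427 higher and 1574 lower), and with control replicate 2 left out of it, an alternative chosen after seeing the data, 4729. At an adjusted p under 0.01, 3018 were called (1456 higher and 1562 lower). Amino acid synthesis genes that fell numbered 4, and 2 with all 9 libraries, 2 at an adjusted p under 0.01, and 2 to 4 with 1 library left out. MHC class I genes that fell numbered 12, and 7 at an adjusted p under 0.01, the stricter threshold itself being the change. With 1 library left out, the heat shock median ranged from -0.11 to 0.0 (without 72 h replicate 2), and uncalled genes changed sign: Ndufv1 ranged from -0.12 to 0.02 (without 72 h replicate 2), Flad1 from -0.11 to 0.03 (without 24 h replicate 1; 0.02 without 72 h replicate 3) and Epas1 from -0.33 to 0.09 (without 24 h replicate 3). The cause was not tested. No pairing by replicate number was visible: deviations of same-numbered libraries correlated at -0.07, -0.08 and -0.08. With 3 libraries per group, such correlations cannot show that the samples were unpaired. The fit with the replicate number as a block called 4148 genes. Intervals cover the spread between libraries, and at this depth genes of a few CPM, such as Epas1, have wide errors.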
